A study of Nothobranchius furzeri with 10 samples.

Results

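The comparison set the liver libraries whose sample titles carry the numbers JG74 to JG78 against those with the numbers JG80 to JG84. It takes in 10 of the 10 samples of the series, 5 libraries in each run of numbers. Both groups are described in the same words by the labels: liver of 10-week-old male turquoise killifish (Nothobranchius furzeri) of the strain GRZ, with swim-tunnel as the perturbation and no other treatment, genotype or batch given. The title number 79 is skipped between the runs, and no source used here states what the numbers stand for. Condition, batch and any other difference between the runs therefore cannot be told apart. The labels do not say that each library came from a separate fish, so the spread within a run may in part be technical.

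The turquoise killifish is an annual fish of seasonal pools, and GRZ is an inbred strain kept for research on ageing because of its short life. In a swim tunnel a fish swims against a water current. The liver is the main source of plasma proteins and stores glycogen and lipid, and during exercise it releases glucose to the blood. The gene identifiers in the tables are not paired with gene names, and 0 of 26739 matched the reference gene table, so no role can be given to any gene below and the labelled tissue could not be checked against its defining markers. No sequence is shown for the same reason.

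The division into runs was singled out after gene values of these libraries had been seen to part along it. The differences between the runs are therefore given as a description. An adjusted p of 0.05 from edgeR's quasi-likelihood fit over all 14013 tested genes served only to sort genes into called and not called, and no p is printed for a single gene.

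Depth was not used to single out the runs. Libraries JG74 to JG78 held 29009880 ± 8719774 counted reads and libraries JG80 to JG84 held 30845457 ± 9359189 (SD, n = 5 each). The difference of -0.10 in mean log2 total did not pass an exact two-sided permutation test (p = 0.6905, where the smallest p this design allows is 0.00794). Reads were found for 19707 to 20430 genes per library in JG74-JG78 and for 19471 to 20534 in JG80-JG84, so the ranges overlapped. A count of 0 allows up to 3 counts, which was 0.0843 to 0.217 CPM (counts scaled to a library total of 1000000) in JG74-JG78 and 0.0761 to 0.178 CPM in JG80-JG84, for counting error only.

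Of 14013 tested genes, 2661 were called between the runs (19.0%). In JG74-JG78, 1190 genes were called higher (8.49%) and 1471 were called lower (10.5%). Without adjustment, 4837 of the 14013 genes had a p under 0.05, where a share of 0.05 is expected if no gene differs. That share holds only for a split not chosen on gene values. These runs were singled out on such values, so the counts are a description. The calls numbered 1768 without JG76, 1641 without JG77, 1525 without JG82 and 1705 without JG83, each over 1.5 times fewer than with all libraries. They rose to 3020 without JG74 and to 3100 without JG80, and lay at 2114 to 2358 without JG75, JG78, JG81 or JG84. In these settings 13754 to 13925 genes were tested. In a bulk liver sample, fewer cells of a type and less RNA per cell cannot be told apart, which holds for every difference below.

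The balance of higher to lower calls depended on whether the libraries were scaled beyond their totals. With trimmed means of M values (TMM), the scaling used here, 44.7% of called genes were higher in JG74-JG78. The share was 44.6% with median-ratio size factors and 44.8% with scaling without the 20 most abundant genes. With library totals alone the calls were 653 higher and 2365 lower, so that 21.6% were higher. The median log2 fold change over all tested genes was 0.06 with TMM and -0.11 with library totals alone. TMM factors ran from 0.872 to 1.03 in JG74-JG78 and from 0.982 to 1.12 in JG80-JG84. Of the counts, the 100 most abundant genes took 46.7 ± 2.28% in JG74-JG78 and 44.5 ± 1.72% in JG80-JG84 (SD, n = 5 each).

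In 2268 genes (16.2%) the TMM-scaled values of the runs did not overlap. JG74-JG78 lay above JG80-JG84 in 925 of them (6.60%) and below in 1343 (9.58%). With library totals alone the counts were 466 above and 2003 below. The ranges were mostly close. The median gap between them was 0.19 log2 units where JG74-JG78 was higher and 0.18 where it was lower, and the gap was under 0.1 in 32.1% and 30.6% of these genes. Gaps above 2 log2 units occurred in 6 genes where JG74-JG78 was higher and in 0 where it was lower. Of the called genes 75.1% had ranges that did not overlap, and of the genes with such ranges 88.1% were called. The 269 genes that did not overlap and were not called had small differences, with a median of 0.40 log2 units.

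**Figure D1:**
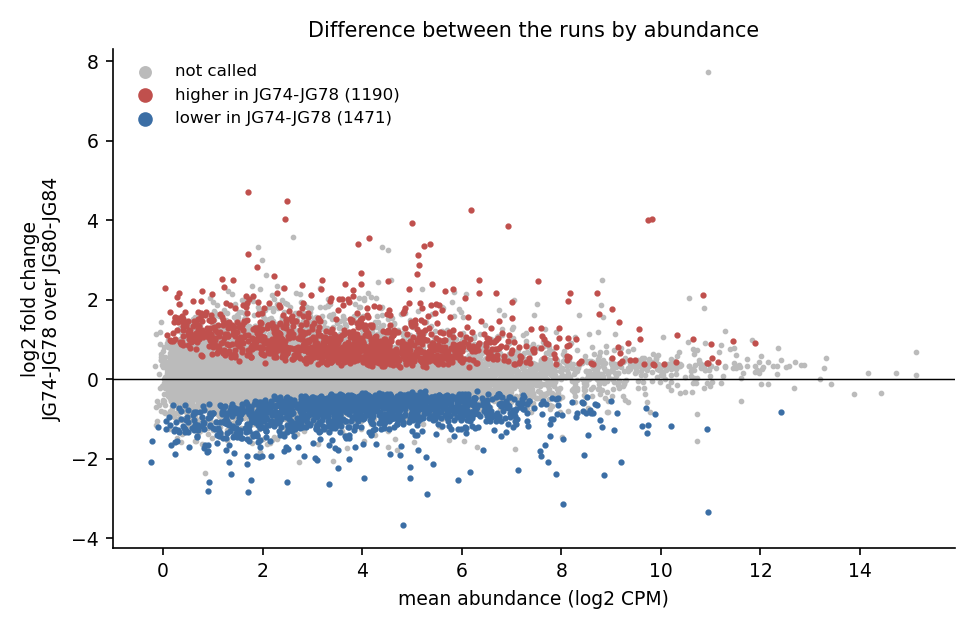
Log2 fold change of JG74-JG78 over JG80-JG84 (vertical axis) against mean abundance in log2 CPM (horizontal axis) for each of the 14013 tested genes, with called genes in colour. The 1190 genes called higher and the 1471 called lower overlap widely in size, with 57 and 28 of them beyond 4-fold, and the grey point at 7.73 is a gene that was not called.

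Most differences were below 2-fold. Among genes called higher in JG74-JG78 the median size of the difference was 0.85 log2 units, and among genes called lower it was 0.74. Larger differences were more often upward under TMM. Above 2-fold stood 439 of the genes called higher (36.9%) and 348 of those called lower (23.7%), and above 4-fold 57 (4.79%) and 28 (1.90%). The counts above 4-fold were also 57 and 28 with median-ratio size factors and with scaling without the 20 most abundant genes. With library totals alone this lean was lost, and the counts above 4-fold were 40 higher and 44 lower. Without JG74 they were 43 and 34. Of 1457 genes beyond 2-fold in either direction, 670 were not called.

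Nfu_g_1_016622 had the largest upward difference among genes picked for naming, which were called, had ranges that did not overlap and averaged at least 10 CPM. It stood at 286, 35.3, 180, 124 and 71.1 CPM in JG74 to JG78, against 5.48, 8.73, 6.67, 5.56 and 10.0 CPM in JG80 to JG84. The runs were apart by 3.52-fold at their nearest libraries, and the spread lay mainly within JG74-JG78, where JG75 was lowest and JG74 highest. It averaged 139 ± 98.5 CPM in JG74-JG78 and 7.29 ± 2.01 CPM in JG80-JG84 (SD, n = 5 each), a fitted log2 fold change of 4.26 ± 0.54 (SE).

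Nfu_g_1_008031 was far more abundant than Nfu_g_1_016622, and steadier in JG74-JG78 (SD of log2 CPM 0.15 against 1.2) but not in JG80-JG84 (0.82 against 0.39). It stood at 1719.9, 1635, 1632, 2046 and 1549 CPM in JG74 to JG78, against 115, 141, 104, 34.9 and 127 CPM in JG80 to JG84. The runs were apart by 11.0-fold at their nearest libraries, with little spread among JG74 to JG78 and with JG83 well below the other libraries of its run. It averaged 1716 ± 194 CPM in JG74-JG78 and 105 ± 41.3 CPM in JG80-JG84 (SD, n = 5 each), a fitted log2 fold change of 4.04 ± 0.34 (SE).

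Nfu_g_1_007386 had the largest downward difference among genes picked by the same rule and was among the 100 most abundant genes. It stood at 964, 515, 34.8, 158 and 97.1 CPM in JG74 to JG78, against 3418, 4576, 4578, 3345 and 1982 CPM in JG80 to JG84. JG76 was lowest by far, and the highest library of JG74-JG78 was still 2.06-fold below the lowest of JG80-JG84. The gene averaged 354 ± 389 CPM in JG74-JG78 and 3580.1 ± 1075 CPM in JG80-JG84 (SD, n = 5 each), a fitted log2 fold change of -3.34 ± 0.80 (SE). It took 0.00342 to 0.0850% of the counts of a library in JG74-JG78 and 0.194 to 0.512% in JG80-JG84.

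Nfu_g_1_021642 was second by that rule. It stood at 28.2, 6.32, 5.83, 4.08 and 2.82 CPM in JG74 to JG78, against 30.1, 30.7, 128, 100.5 and 59.4 CPM in JG80 to JG84. Its ranges only just missed each other, since JG74 lay 1.07-fold below JG80, while the other 4 libraries of JG74-JG78 lay at 2.82 to 6.32 CPM. It averaged 9.45 ± 10.6 CPM in JG74-JG78 and 69.8 ± 43.5 CPM in JG80-JG84 (SD, n = 5 each), a fitted log2 fold change of -2.88 ± 0.71 (SE). It was not called without JG76 or without JG82, at log2 fold changes of -2.74 and -2.54.

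**Figure D2:**
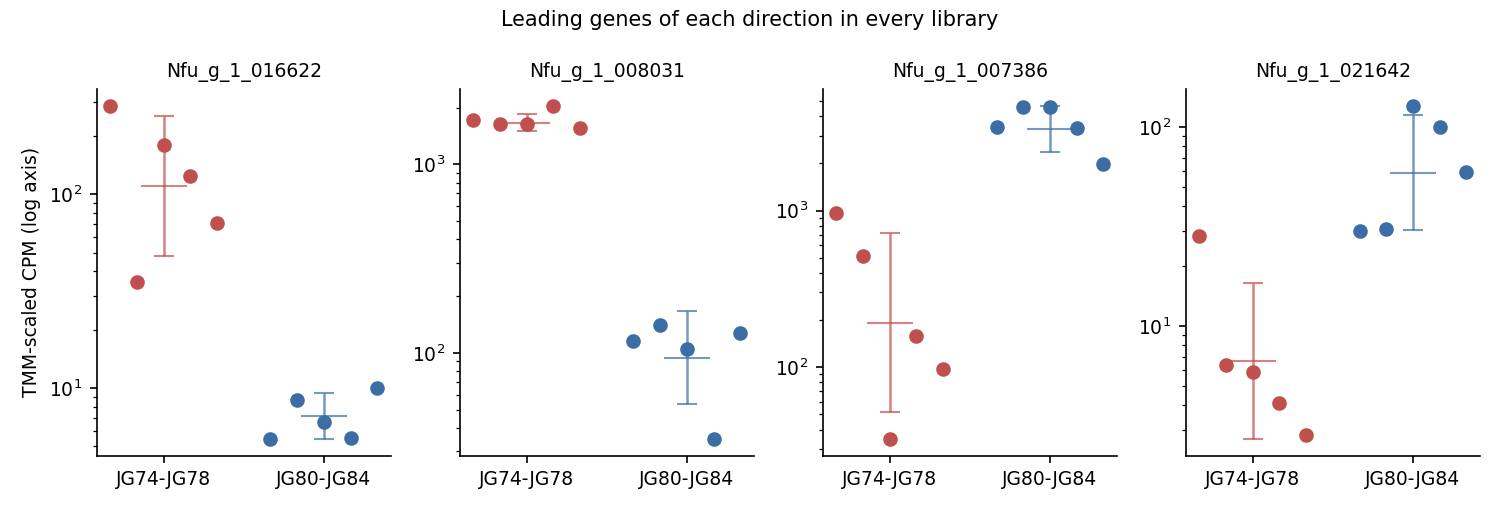
TMM-scaled CPM (log axis) of the 4 genes in each library, as points in order of title number, with the mean and SD of log2 CPM of each run as lines. Nfu_g_1_008031 parts the runs most widely, at 1549 to 2046 CPM in JG74-JG78 and 34.9 to 141 CPM in JG80-JG84, and Nfu_g_1_021642 parts them least.

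The libraries of a run were not alike among the leading genes. The same rule found 483 eligible genes higher and 762 lower in JG74-JG78. The 12 with the largest difference in each direction had log2 fold changes of 2.48 to 4.26 in size where higher and of 1.92 to 3.34 where lower. Among the 12 higher genes, JG74 was the highest library of its run in 7 and JG75 the lowest in 6, and JG83 was the lowest library of its run in 7. The median of these 12, relative to each gene's mean over the 10 libraries, was 2.17 log2 units in JG74 and 1.10 in both JG75 and JG78, and it lay between -1.95 and -1.48 in JG80-JG84. Among the 12 lower genes the least marked libraries were JG74, at -0.75, and JG80, at 0.79. The others lay between -1.44 and -1.07 in JG74-JG78 and between 1.14 and 1.60 in JG80-JG84. These orders did not hold over all called genes. Over the 1471 genes called lower the least marked libraries were JG78, at a median of -0.21, and JG81, at 0.27. Over the 1190 called higher, JG77 was the highest of its run, at 0.50, and JG78 the lowest, at 0.29, with JG74 at 0.45.

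**Figure D3:**
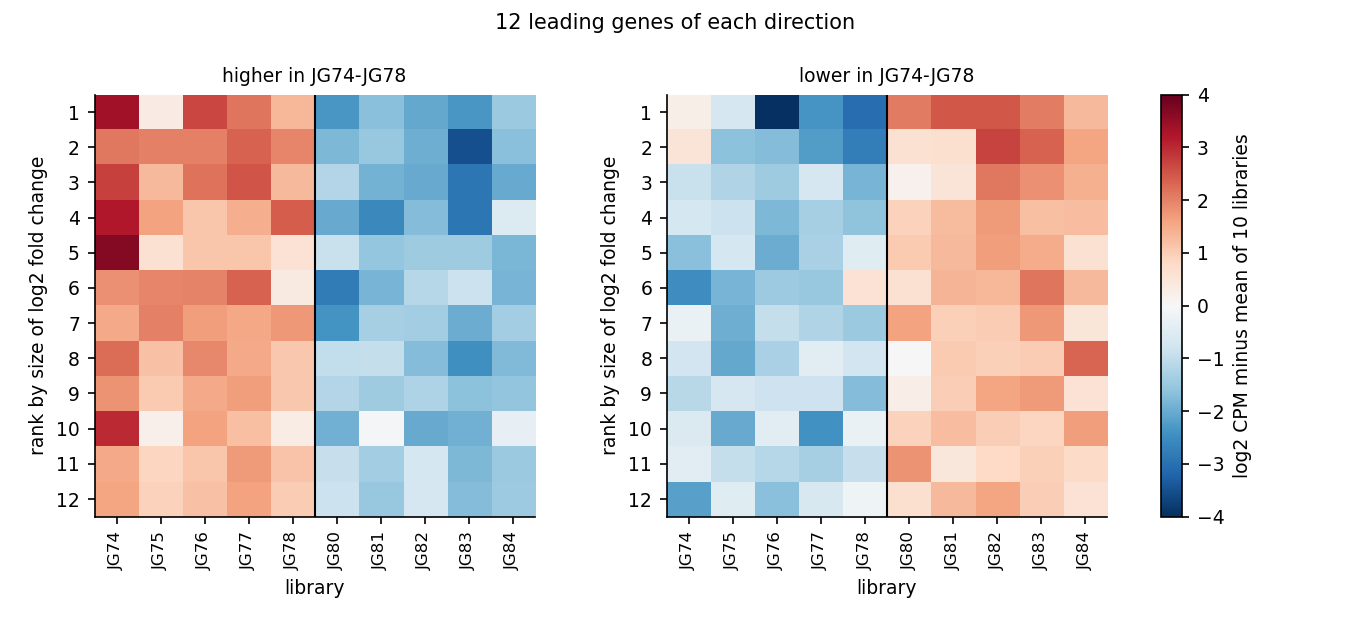
Log2 CPM minus the mean of the 10 libraries for the 12 leading genes of each direction (rows, ranked by the size of the log2 fold change) in each library (columns), with a line between the runs. JG74 is darkest in several of the higher genes and JG83 is lowest of its run in 7 of 12, while JG80 is pale in many of the lower genes.

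To see where a library stood on genes it had not helped to choose, genes were called from the other 9 libraries and the library left out was then placed between the means of the runs. On this scale 0 is the mean of JG80-JG84, 1 is the mean of JG74-JG78 and 0.5 is the midpoint. Every library had its median gene on the side of its own run, at 0.69 to 1.13 in JG74-JG78 and at -0.03 to 0.23 in JG80-JG84. The division itself was known from all 10 libraries, so this is no independent support for it.

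The libraries differed in how many of the genes lay on their own side. In JG74-JG78 the share was 95.4% in JG77, 93.0% in JG76, 81.29% in JG75, 75.5% in JG78 and 69.1% in JG74. In JG80-JG84 it was 96.7% in JG83, 94.3% in JG82, 88.0% in JG81, 79.4% in JG84 and 66.1% in JG80. Each share is over its own set of called genes. These numbered 1641 for JG77, 1705 for JG83 and 1525 for JG82, but 3020 for JG74 and 3100 for JG80. The part of the differing sets in the order of the shares was not tested. JG74 and JG80 also had the widest middle range, from 0.38 to 1.26 and from -0.18 to 0.69. For JG80 the share was 55.6% among genes higher in JG74-JG78 and 73.5% among genes lower there. With JG74 and JG80 both left out, 3673 of 13707 tested genes were called. Ranges did not overlap in 4290, over 1.5 times the 2268 of 14013 with all libraries. JG74 and JG80 were the libraries with the lowest own-side shares, and fewer libraries give narrower ranges, so a rise was favoured in advance. No other pair was left out for comparison.

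**Figure D4:**
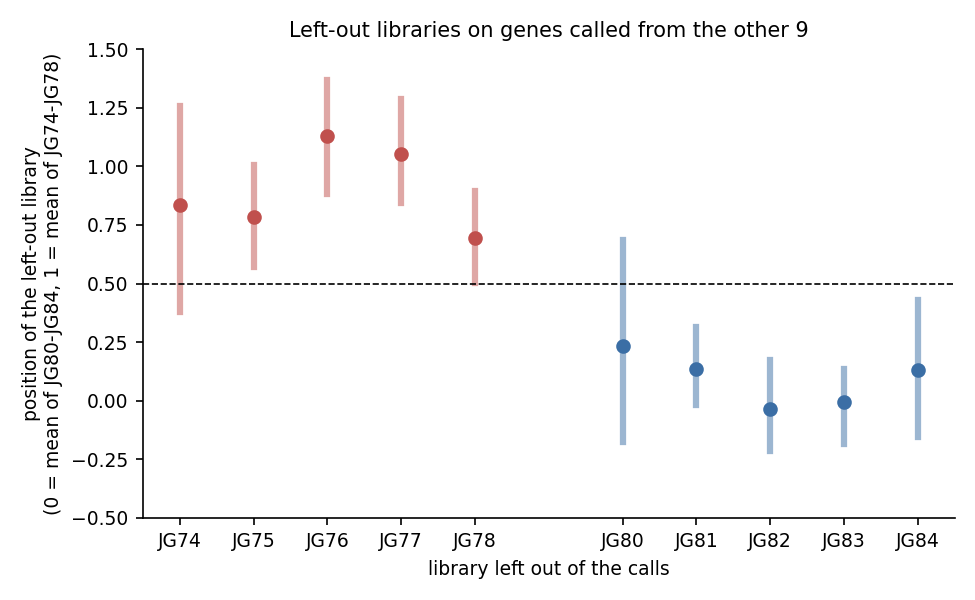
Position of each left-out library (horizontal axis) on genes called from the other 9, as the median (point) and the quartiles over genes (bar), where 0 is the mean of JG80-JG84 and 1 that of JG74-JG78. All 5 points of JG74-JG78 lie above the dashed midpoint and all 5 of JG80-JG84 below it, with the widest bars in JG74 and JG80.

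Among the genes whose ranges did not overlap, the library nearest to the other run was most often JG78 in JG74-JG78. It was nearest in 33.7% of the genes higher in JG74-JG78 and in 40.6% of the genes lower there. JG76 and JG77 were the nearest in 5.44 to 12.1%. In JG80-JG84 the nearest library was most often JG80 among genes higher in JG74-JG78 (32.4%) and JG81 among genes lower there (33.4%). JG82 was nearest in 3.72% of the lower genes but in 19.6% of the higher ones, where JG83 was rarest, at 7.46%. JG84 was nearest in 24.2% of the higher and 25.8% of the lower genes. Genes in which a library crossed into the range of the other run are left out here. The order of libraries need not match that of the own-side shares above, which were lowest in JG74 and JG80.

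The difference between the runs was not the main axis of variation. It held 21.6% of the variance of log2 CPM summed over tested genes and a median of 22.9% of the variance of a gene. It held over 50% in 3603 genes (25.7%). Any division of the libraries holds part of the variance, and other divisions were not computed for comparison. The first 3 principal components held 30.3%, 26.3% and 15.7% of the variance, and of these components 27.3%, 23.9% and 43.9% lay between the runs. In the fourth to ninth components at most 1.87% did. The first component had JG76 at one end, at 88.2, and JG82 at the other, at -62.1. The second had JG74 at 103 and JG84 at -56.5.

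Called genes were mostly genes with little spread within a run. In 4 equal classes by rising SD within the runs, 31.1%, 22.5%, 16.4% and 5.94% of genes were called, an order that the test itself favours. Among the 485 genes whose log2 CPM had an SD over 1.5 across all libraries, 24 were called higher and 12 lower in JG74-JG78. That is 7.42%, against 19.0% of all tested genes. The test itself favours a low share here too, as far as these genes vary within the runs. The largest fitted difference of all, 7.73 log2 units, belonged to a gene that was not called. Genes called lower in JG74-JG78 had a median SD of 0.26 log2 units in JG74-JG78 and 0.20 in JG80-JG84, and 65.5% of them varied more in JG74-JG78, against 53.4% of all tested genes. Genes called higher had median SDs of 0.27 in JG74-JG78 and 0.30 in JG80-JG84. Values of low genes carry more counting noise, and the part of abundance in this contrast was not tested.

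Few of the dominant transcripts of the liver were called between the runs. Of the 20 most abundant genes 1 was called, and it was lower in JG74-JG78. Together these 20 took 25.3 ± 1.93% of the counts in JG74-JG78 and 25.3 ± 1.67% in JG80-JG84 (SD, n = 5 each). Of the 100 most abundant, 9 were called higher and 3 lower (12% of these, against 19.0% of all tested genes). These counts are small, and in the highest of 4 equal classes of mean CPM 22.1% of genes were called. The 9 higher ones had log2 fold changes of 0.41 to 2.12 and took 2.22 to 2.80% of the counts in JG74-JG78 and 1.44 to 1.72% in JG80-JG84. The log2 fold changes of all 100 ran from -3.34 to 7.73, and the gene at 7.73 was not called. The 3 lower ones had log2 fold changes of 0.82 to 3.34 in size, with Nfu_g_1_007386 the largest, and took 0.371 to 0.593% in JG74-JG78 and 1.11 to 1.62% in JG80-JG84.

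The called genes as a whole held a modest part of the RNA. Those called higher took 8.47 ± 0.425% of the counts in JG74-JG78 and 5.18 ± 0.168% in JG80-JG84, and those called lower took 4.21 ± 0.572% in JG74-JG78 and 8.89 ± 0.476% in JG80-JG84 (SD, n = 5 each). The direction of these sums follows from the choice of genes on these same libraries. Their size and small spread were favoured by it too, so they are a description only. Few genes made up much of each sum, which also held for the libraries as a whole. There the 100 most abundant genes took 46.7% of all counts in JG74-JG78 and 44.5% in JG80-JG84. The 10 leading genes held 30.8% of the higher pool in JG74-JG78 and 25.7% of the lower pool in JG80-JG84, and 28 and 68 genes held 50% of these pools.

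By abundance, 14.1%, 17.8%, 21.98% and 22.1% of genes were called in 4 equal classes of rising mean CPM. The median sizes of the called differences in these classes were 1.07, 0.79, 0.69 and 0.72 log2 units. At low counts a difference must be larger to be called, so the test itself favours both orders. In the lowest class, with a median of 2.36 CPM, 255 genes were called higher and 240 lower in JG74-JG78. In the highest, with a median of 59.6 CPM, the counts were 335 and 439. The filter let in 17 genes that reached 1 CPM in all 5 libraries of JG74-JG78 and in no library of JG80-JG84, and 15 with the reverse pattern. All 32 were called, which the filter made nearly certain, and they are 1.203% of the calls. Of the 11971 genes at or above 1 CPM in all 10 libraries, 20.03% were called.

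Direction went with gene length. The runs were not chosen by length, but the directions come from calls on the gene values by which the runs were singled out. The result is therefore a description. Length here is that implied by the deposited counts and RPKM. Of these lengths 51.4% are multiples of 3, and the sources used here do not say which parts of a transcript they cover. Genes called higher in JG74-JG78 had a median length of 3468 bases and genes called lower 2423 bases, against 2885 bases for all tested genes. In 4 equal classes of rising length, 36.1%, 37.5%, 46.5% and 59.8% of the called genes were higher in JG74-JG78, while the share of genes called at all was 18.95%, 19.73%, 19.33% and 17.96%. The longest class held 376 genes called higher and 253 called lower, and the shortest 240 and 424. The contrast was present in each class of abundance: in the longest genes 65.9%, 51.2%, 61.8% and 60.4% of the calls were higher from the lowest to the highest class, and in the shortest 43.0%, 31.7%, 33.9% and 37.5%. With library totals alone the shares were lower throughout, at 16.5% in the shortest and 30.9% in the longest class. The majority of higher calls in the longest class was also lost with no filter on low counts, at 48.4%, and with JG74 and JG80 both left out, at 49.3%, where the shortest class was at 25.6% and 36.7%.

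The same property moved over all tested genes, but weakly, and 1 library went against its run. The median log2 fold change was 0.02 in the shortest class and 0.13 in the longest. For each library the median level of the longest class, relative to each gene's mean, was set against that of the shortest. The longest stood above the shortest by 0.0995, 0.0906, 0.0832 and 0.0795 log2 units in JG74 to JG77, but the difference was -0.0896 in JG78. In JG80 to JG84 it was -0.185, -0.0571, -0.0349, -0.0274 and -0.0735. The sources used here do not give RNA quality or insert size, and the part of either in the result was not tested.

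**Figure D5:**
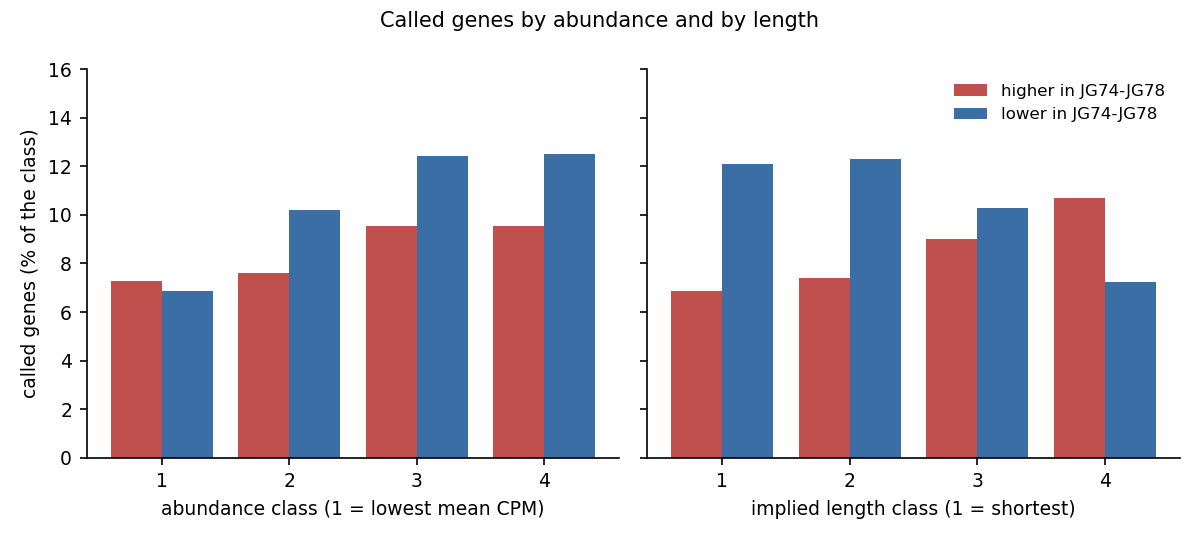
Share of genes called higher and lower in JG74-JG78 (vertical axis, percent of the class) in 4 equal classes of mean CPM (left) and of implied length (right). In the shortest genes 6.85% were called higher and 12.1% lower, and in the longest 10.7% and 7.22%, with TMM and this filter. Among the genes of these classes, the majority of higher calls in the longest was lost with library totals alone, with no filter or without both JG74 and JG80. The shortest genes kept more lower calls in these settings.

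The order of genes in the count table was also looked at. Of 8520 pairs of tested genes in neighbouring rows, 366 had both members called, and 237 of these (64.8%) had the same direction. Both were higher in JG74-JG78 in 26.8% of the 366 pairs and both lower in 38.0%, where 44.7% of all calls were higher and 55.3% lower. Whether this exceeds the agreement that these shares alone give was not tested. After a called gene the next row was called in 22.5% of pairs, and after a gene that was not called in 18.2%. Stretches of at least 3 neighbouring genes called in 1 direction numbered 4 higher, with 12 genes, and 10 lower, with 32 genes. The longest were 2 stretches of 4 genes lower in JG74-JG78, with log2 fold changes from -0.77 to -0.56 and from -0.84 to -0.44. The sources used here do not say whether neighbouring rows are neighbours in the genome.

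Genes read in a single run were few and weak. Reads in all 5 libraries of JG74-JG78 and none in JG80-JG84 were found for 8 genes, with a median of 9 reads summed over the run and at most 22. The reverse held for 3 genes, with at most 20 reads. Of these 11 genes 0 passed the filter on low values.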

How the data were processed

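The members and the comparisons were chosen with earlier results of these data known. Libraries were made with the TruSeq RNA kit from total RNA, per the labels' protocols. The authors deposited raw counts of reads for 26739 genes, and the submitters' processing notes name bcl2fastq 1.8.4, STAR 2.4.1d and featureCounts 1.4.6-p4. The build, the gene annotation and the settings for counting are not stated in these sources, so how reads of similar or overlapping genes were assigned is unknown. The deposited RPKM values were divided by library totals that rotate down the rows. In 3039 genes with all values above 5 RPKM, the implied length varied by 0.00122% between libraries with rotating totals and by 52.0% with own totals. They gave gene lengths only.

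Genes with at least 1 CPM in at least 5 libraries were kept (14013, at least 99.6% of each library's counts). Samples were grouped by title number. Libraries were scaled by TMM in edgeR 4.0.16 (R 4.3.3) and fitted with its robust quasi-likelihood test, with the run as the only term and Benjamini-Hochberg adjustment over all tested genes. The SE is the log2 fold change over the square root of F. A prior count of 2 was added for log2 CPM. The 4 genes named are those with the largest fold change, 2 in each direction, among called genes whose ranges do not overlap and whose mean is at least 10 CPM. The planned marker lists could not be matched to identifiers. No pair of libraries was a repeat deposit (chi-square per degree of freedom at least 43.7 over 45 pairs). Alternatives used DESeq2 1.42.0, limma 3.58.1, other scalings and filters, thinning and left-out libraries. The fit was tested on simulated data. Python 3.11.15 made the summaries.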

Additional observations from a re-analysis of the deposited data

Results flagged for a closer look

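Per-library values were tested within each run for a library far from the other 4, in 26 sets of 5, and 2 such libraries were found. Chance alone flags about 1 in 20 sets, and 2 in 26 is not far from that rate. JG75 had 13806555 counted reads, against 30094107 to 35599186 in the other libraries of JG74-JG78. Nfu_g_1_008031 was at 5.13 log2 CPM in JG83, against 6.71 to 7.14 in the other libraries of JG80-JG84. This gene was named for its values in these same libraries, so the chance rate need not hold for it.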

How the results depend on the processing

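Counts of called genes (2661, of which 1190 higher and 1471 lower in JG74-JG78) and of genes with ranges that do not overlap (2268, of which 925 and 1343) stayed within 1.5 times under median-ratio size factors, a minimum of 5 CPM, thinning, DESeq2 (3742 called), limma-voom and scaling without the 20 most abundant genes, as far as each gives them. With library totals alone, an alternative added after the data were seen, 653 genes were called higher and 2365 lower, and 466 lay higher without overlap; by construction no factor then sets the centre of the fold changes. Without a low-count filter 775 genes were called higher, with 22148 genes tested; the cause was not tested. With JG74 and JG80 both left out, also added later, the genes that did not overlap numbered 4290 of 13707 tested. Of these, 1798 were higher and 2492 lower. Without JG74 alone the genes that did not overlap numbered 3131 and without JG80 alone 3353. Fewer libraries give narrower ranges, and the part of this in the rise was not tested. With 1 library left out, the called genes numbered 1525 to 3100, those higher 636 to 1280 and those lower 823 to 1820. Between 13754 and 13925 genes were tested in these settings. Calls higher numbered 636 without JG77, 702 without JG82 and 636 without JG83, and calls lower 973 without JG76 and 823 without JG82. Genes that did not overlap numbered 2384 to 3353, with 885 to 1351 higher and 1358 to 2002 lower. Of the 2661 called genes, 56.6% were called in the same direction without JG82 and 99.9% by DESeq2. The longest genes had a larger share of higher calls than the shortest under every alternative tried, with the longest at 30.9 to 64.5%. The depth difference ran from -0.300 to 0.150 log2 units with 1 library left out and changed sign without JG75, JG81 or JG82. No paired analysis was possible because the runs share no replicate number. Depth limits the weakest genes most in JG75.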
